A study of Mus musculus with 6 samples.

Results

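The genes described here are 36 genes of mitosis and the mitotic spindle, whose RNA was read with Affymetrix arrays in cultured mesenchymal stem cells of the mouse, adherent cells of the marrow stroma with the capacity to form skeletal tissues and fat. They were listed by symbol and cover the kinases and cyclins of mitotic entry, the spindle checkpoint, the kinetochore, spindle motors, the machinery of cytokinesis and the steps that start anaphase. All 36 were found among the 22300 genes that the authors' deposited table names, and Ccnb1, which had 3 rows, is described by its brightest. The clone was Clone 4L.1.4, given in the labels as a tertiary clone of MSC21. The cells it was set against were MSC21, the population of these cells from mouse bone marrow. Each group had 3 arrays from independent cell samples grown to confluence in stem cell medium, with no drug, transgene or genotype given in the labels, nor strain or age. Only 1 clone was studied, so a feature of this clone and a feature of cloning cannot be told apart. The labels do not say that the samples came from separate animals, so p-values measure the spread between these cultures.

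Cells enter mitosis when Cdk1 is switched on by cyclins A and B and by Cdc25 phosphatases, with Aurora and Polo kinases building the spindle. The spindle checkpoint holds the anaphase-promoting complex until every kinetochore is attached, after which Cdc20 lets the complex destroy securin and cyclin B, and separase cuts the cohesin that joins sister chromatids. The RNAs of most of these proteins accumulate late in the cell cycle, through MuvB, B-Myb and Foxm1 acting at promoter elements that include the CHR (TTTGAA). The CCAAT box is a further element of many such promoters. In cultures of stromal cells, the RNAs of these genes are widely used to read how much a culture divides.

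Promoters were available for 29 of the 36 genes in a RefSeq table of the build GRCm38.p6, each 250 bases before and 50 after the start. The sequences of 8 genes are shown because they had the 4 largest falls and the 4 largest rises among the members that passed the test. Each runs 5′ to 3′ along its gene and ends 20 bases after the start. Capitals mark CHR matches (TTTGAA on either strand), CCAAT matches (either strand) and the near variant TTTAAA, with overlapping matches allowed. The first 4 genes were lower in the clone and the last 4 higher.
Kif23: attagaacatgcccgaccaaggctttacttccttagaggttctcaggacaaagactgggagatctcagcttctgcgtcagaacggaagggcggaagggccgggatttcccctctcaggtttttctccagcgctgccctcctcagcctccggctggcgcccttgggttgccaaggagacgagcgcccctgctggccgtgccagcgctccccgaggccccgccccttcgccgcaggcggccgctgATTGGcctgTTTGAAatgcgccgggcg
Racgap1: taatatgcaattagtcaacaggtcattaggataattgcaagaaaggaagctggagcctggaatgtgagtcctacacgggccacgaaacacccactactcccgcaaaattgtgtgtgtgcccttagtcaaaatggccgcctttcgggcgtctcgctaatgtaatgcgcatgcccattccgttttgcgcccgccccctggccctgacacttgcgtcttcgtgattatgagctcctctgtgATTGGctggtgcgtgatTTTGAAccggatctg
Espl1: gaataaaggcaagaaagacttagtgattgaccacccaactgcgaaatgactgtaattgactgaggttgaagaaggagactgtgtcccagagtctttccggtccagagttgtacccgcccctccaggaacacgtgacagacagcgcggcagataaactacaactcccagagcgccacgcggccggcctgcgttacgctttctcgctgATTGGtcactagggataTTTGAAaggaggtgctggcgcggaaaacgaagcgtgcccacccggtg
Ccnb1: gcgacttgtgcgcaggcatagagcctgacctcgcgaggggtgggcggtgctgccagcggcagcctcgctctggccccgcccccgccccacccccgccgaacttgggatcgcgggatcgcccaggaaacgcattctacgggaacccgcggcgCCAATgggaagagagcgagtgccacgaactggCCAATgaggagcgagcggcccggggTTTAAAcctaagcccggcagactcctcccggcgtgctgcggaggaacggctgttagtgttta
Mki67: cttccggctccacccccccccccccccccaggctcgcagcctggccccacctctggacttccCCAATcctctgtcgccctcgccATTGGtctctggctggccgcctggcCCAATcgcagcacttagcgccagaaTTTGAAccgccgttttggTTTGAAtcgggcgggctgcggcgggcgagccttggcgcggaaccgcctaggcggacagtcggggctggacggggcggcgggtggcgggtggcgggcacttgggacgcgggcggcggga
Top2a: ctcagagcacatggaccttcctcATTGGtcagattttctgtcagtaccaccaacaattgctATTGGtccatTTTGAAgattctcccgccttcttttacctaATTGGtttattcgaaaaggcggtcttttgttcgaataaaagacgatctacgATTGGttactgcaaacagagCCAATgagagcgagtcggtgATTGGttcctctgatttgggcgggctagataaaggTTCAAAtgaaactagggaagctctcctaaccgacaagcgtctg
Cenpf: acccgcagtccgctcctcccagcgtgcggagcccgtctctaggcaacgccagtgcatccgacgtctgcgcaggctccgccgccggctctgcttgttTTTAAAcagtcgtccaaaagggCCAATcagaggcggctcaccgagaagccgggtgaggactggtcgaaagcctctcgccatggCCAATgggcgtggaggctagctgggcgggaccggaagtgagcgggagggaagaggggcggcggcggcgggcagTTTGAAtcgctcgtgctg
Bub1: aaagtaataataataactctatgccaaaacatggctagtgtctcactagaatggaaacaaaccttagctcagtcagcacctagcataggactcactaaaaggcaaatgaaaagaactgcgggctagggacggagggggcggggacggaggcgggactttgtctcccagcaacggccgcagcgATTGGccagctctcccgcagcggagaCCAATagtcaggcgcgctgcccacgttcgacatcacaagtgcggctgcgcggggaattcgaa
The windows are chr9:61946780-61947049 (minus strand), chr15:99651637-99651906 (minus strand), chr15:102296043-102296312 (plus strand) and chr13:100786467-100786736 (minus strand) for the genes that were lower. For the genes that were higher they are chr7:135716360-135716629 (minus strand), chr11:99024170-99024439 (minus strand), chr1:189688067-189688336 (minus strand) and chr2:127831840-127832109 (minus strand).

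The promoters of Kif23, Racgap1 and Espl1 held a CCAAT match followed closely by a CHR match. In Espl1 the CHR match began 27 bases before the start and the CCAAT match 44 bases before it, while in Kif23 and Racgap1 the CHR match began at positions 3 and 6 of the transcript. Ccnb1 held a pair of CCAAT matches, 99 and 67 bases before the start, with TTTAAA at 42 bases and no TTTGAA. Mki67 held CHR matches 116 and 98 bases before the start, Top2a held CHR matches at 179 and 23 bases with 6 CCAAT matches, and Bub1 held CCAAT matches only. Counting the first listed start of each gene, 20 of 29 members had a CHR match (69.0%), against 17.9% of the 32851 promoters in the table. A CCAAT match was present in 23 of 29 (79.3%), against 37.4% of all promoters. Both lay within 40 bases of each other in 13 of 29 (44.8%), against 2.49% of all promoters. The CHR match was found in 4 of 6 members that were higher in the clone, in 6 of 8 that were lower and in 10 of 15 that did not pass the test. A match describes these letters in this window and does not show that a factor binds there.

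The mitosis and spindle genes did not move together. Of the 36, 6 rose and 9 fell in the clone and 21 did not pass limma's moderated test at an adjusted p under 0.05, adjusted by Benjamini-Hochberg over all 35556 rows. Over all rows 23.8% passed, 12.8% higher and 10.9% lower, and the groups did not overlap for 37.2%. Among the 22300 named genes 29.1% passed, 14.5% higher and 14.5% lower, and 43.1% did not overlap. Every member was brighter than the array medians of 5.19 to 5.25, with a lowest value of 6.78. Among the 7259 named genes at least as bright as the dimmest member, 54% passed and 70.1% had groups that did not overlap. The members had 41.7% passed and 25 of 36 (69.4%) not overlapping, and no test of their difference from the other genes was made. The median difference of clone minus population was 0.01 (log2), against -0.01 over all named genes and 0.03 over those as bright. It was -0.03 once arrays were centred on their medians. No member differed 2-fold or more, against 6.49% of the genes as bright. In bulk RNA, fewer dividing cells and less RNA per dividing cell cannot be told apart, and each value is on a scale shared by the whole array, since normalization sets the overall level. The count of members that rose was 3 without clone array 2, and 4 to 7 without any other array, while the count that fell was 6 to 8.

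**Figure D1:**
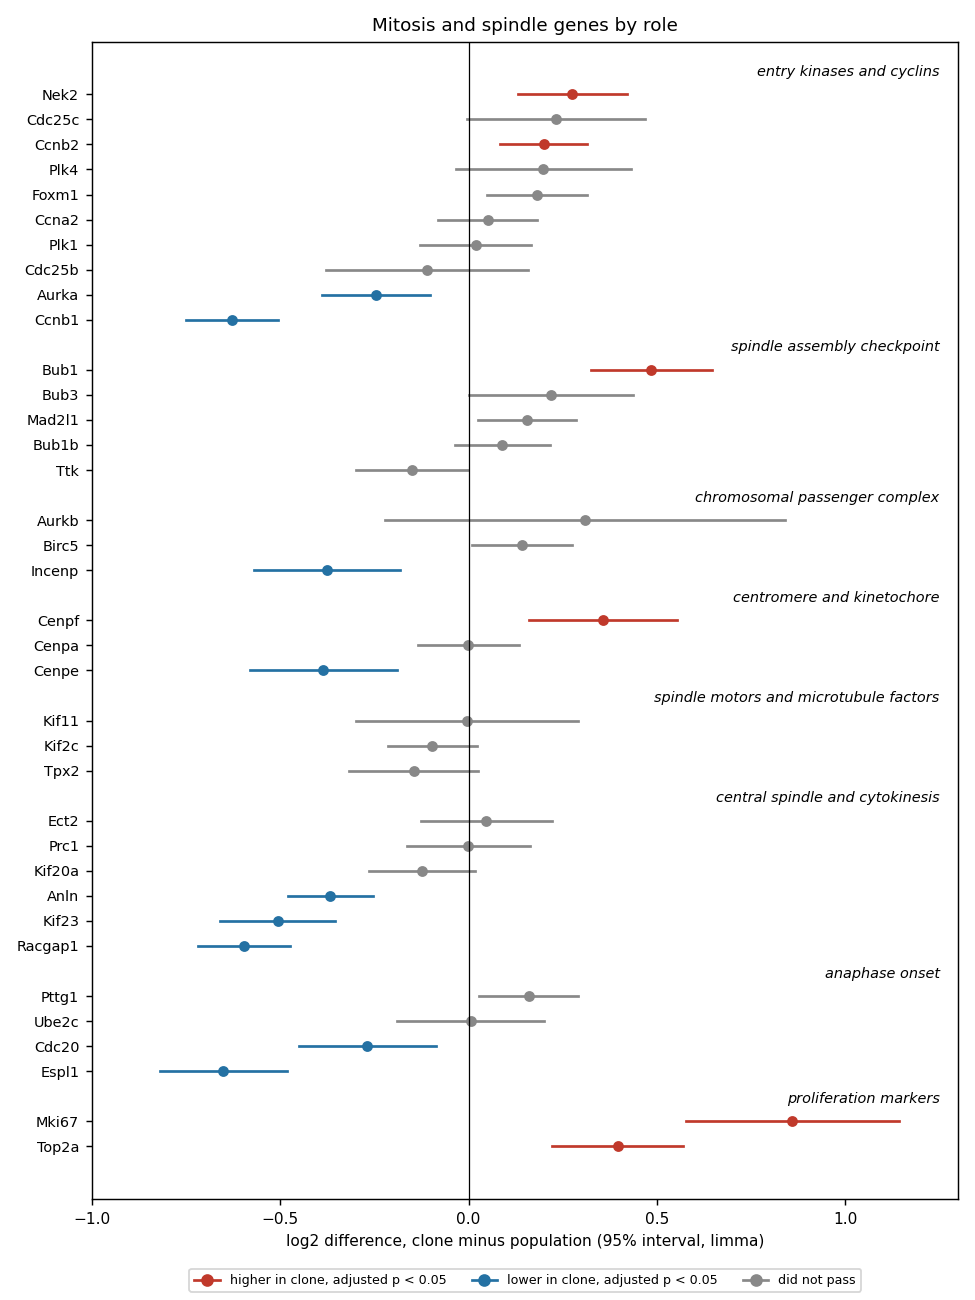
Log2 difference of clone minus population for all 36 genes, grouped by role; points are differences, bars 95% intervals from limma, n = 3 arrays per group. Mki67 lies farthest to the right at 0.86 and Espl1 farthest to the left at -0.65, and within most roles the points lie on either side of 0.

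The 2 members grouped as proliferation markers, Mki67 and Top2a, rose. Among 22 other genes tied to proliferation, described below, 6 rose and 7 fell. Mki67, whose product Ki-67 coats mitotic chromosomes and serves as the standard marker of cycling cells, had log2 signals of 9.71, 9.76 and 9.50 in the clone, against 8.58, 8.84 and 8.98 in the population. All clone arrays lay above all population arrays, by 0.86 ± 0.12 on average (log2 ± SE), or 1.81-fold (limma adjusted p = 0.00227). This was the widest difference among the members. Top2a, the topoisomerase that untangles sister chromatids, had 11.11, 10.98 and 11.10 in the clone and 10.55, 10.74 and 10.71 in the population. It rose by 0.40 ± 0.07, or 1.32-fold (limma adjusted p = 0.00812). The log2 ratio of Mki67 to Top2a within an array was higher in the clone by 0.46, without overlap of the groups. In the population, array 1 gave the lowest value of both genes.

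Among the cyclins and kinases of mitotic entry, Ccnb1 fell while its close relative Ccnb2 rose slightly. Ccnb1 encodes cyclin B1, the main activator of Cdk1 in mitosis. It had log2 signals of 10.74, 10.77 and 10.84 in the clone, against 11.42, 11.39 and 11.42 in the population, a difference of -0.63 ± 0.05 (limma adjusted p = 0.000231). The further rows that carry its symbol gave -0.62 and -0.63, with adjusted p-values of 0.000263 and 0.00196 in limma, although copies of the gene elsewhere in the genome could share probes. Ccnb2, the Golgi-associated cyclin B2, had 9.62, 9.64 and 9.63 in the clone and 9.47, 9.39 and 9.42 in the population. It rose by 0.20 ± 0.05 (limma adjusted p = 0.0253), a call that was lost without any of clone arrays 1, 2 and 3 or population arrays 2 and 3 (adjusted p = 0.0656 to 0.0833) and with centred arrays (0.0574). The ratio of Ccnb1 to Ccnb2 was lower in the clone by 0.83 on the log2 scale. Ccna2, the cyclin of S phase and early mitosis, differed by 0.05 with a 95% interval of -0.08 to 0.18.

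Nek2, a kinase that separates centrosomes, rose by 0.28 ± 0.06 (limma adjusted p = 0.017). That call was lost without clone array 2 (0.0523) or clone array 3 (0.0557). Aurka, the Aurora kinase of the spindle poles, had 8.56, 8.65 and 8.57 in the clone and 8.90, 8.76 and 8.87 in the population. It fell by 0.25 on the log2 scale (limma adjusted p = 0.0253), and this call ended without clone arrays 1 or 3 or population arrays 1 or 3 (adjusted p = 0.0773 to 0.0851). Plk1, the central Polo kinase of mitosis, differed by 0.02 with an interval of -0.13 to 0.17. Plk4, the kinase of centriole duplication, differed by 0.20 (-0.03 to 0.43), with population array 1 at 8.61 below the other two at 8.93 and 8.92. The phosphatase genes Cdc25b and Cdc25c, which activate Cdk1, differed by -0.11 (-0.38 to 0.16) and 0.23 (interval up to 0.47). Foxm1, a transcription factor of late cell cycle genes, had 7.23, 7.27 and 7.22 in the clone and 7.13, 6.99 and 7.05 in the population. Its groups did not overlap, but the difference of 0.18 ± 0.06 missed the threshold (limma adjusted p = 0.0604) and passed without population array 1 (0.0476).

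Of the 5 checkpoint genes only Bub1 passed. Bub1 encodes the kinase that marks centromeres and recruits other checkpoint proteins to unattached kinetochores. It had 9.59, 9.48 and 9.49 in the clone and 8.94, 9.04 and 9.13 in the population, and rose by 0.48 ± 0.07, or 1.40-fold (limma adjusted p = 0.00231). Its relative Bub1b, which encodes BubR1 of the mitotic checkpoint complex, differed by 0.09 with an interval of -0.04 to 0.22. The ratio of Bub1 to Bub1b was higher by 0.39 in the clone, without overlap. Bub3, the partner of both, differed by 0.22 (up to 0.44), and Mad2l1, which encodes the Mad2 inhibitor of Cdc20, by 0.16 (0.03 to 0.29). Ttk, the Mps1 kinase at the top of the checkpoint, differed by -0.15 (limma adjusted p = 0.145). For Bub3, Mad2l1 and Ttk the groups did not overlap, yet none passed.

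The 3 genes of the chromosomal passenger complex, which corrects faulty attachments and later moves to the central spindle, gave 3 different pictures. Incenp, its scaffold, had 7.71, 7.71 and 7.63 in the clone and 8.14, 7.89 and 8.14 in the population. It fell by 0.38 (limma adjusted p = 0.0156), which was lost without clone array 3 or population arrays 1 or 3 (adjusted p = 0.0518 to 0.0566). Birc5, which encodes survivin, differed by 0.14 (limma adjusted p = 0.123). Aurkb, the kinase of the complex, scattered more than any other member, with SDs of 0.34 in the clone and 0.36 in the population. Its values were 8.23, 8.87 and 8.70 in the clone and 8.14, 8.04 and 8.70 in the population, so the groups overlapped and the interval of the difference ran from -0.22 to 0.84.

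Of the RNAs for kinetochore proteins, Cenpf rose and Cenpe fell. Relative to the median of its chromosome, Cenpe stood at -0.29 over all named genes and at 0.04 over those above the median row. Cenpf, which encodes a protein of the nuclear matrix and outer kinetochore, had 8.27, 8.20 and 8.11 in the clone and 7.69, 7.89 and 7.94 in the population. It rose by 0.36 ± 0.08 (limma adjusted p = 0.0207), a call lost without clone array 1 (0.072) or clone array 2 (0.0584). Cenpe, the kinesin that carries chromosomes to the metaphase plate, had 7.96, 7.83 and 7.74 in the clone and 8.11, 8.29 and 8.29 in the population. It fell by 0.39 (limma adjusted p = 0.0148), which was lost without population array 2 (0.0526) or 3 (0.0544). The ratio of Cenpe to Cenpf was lower by 0.74 in the clone. Its groups did not overlap, which follows from the groups of each gene standing apart in opposite directions. Cenpa, the histone H3 variant that defines centromeres, did not pass, and the interval of its difference was -0.14 to 0.13.

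None of the 3 spindle assembly genes passed. Kif11, the Eg5 motor that pushes the poles apart, had a wide interval of -0.30 to 0.29 about a difference near 0. Its population values were 8.85, 9.18 and 9.29, array 1 again being the lowest. Tpx2, which activates Aurora A on spindle microtubules, differed by -0.15 (-0.32 to 0.03), and Kif2c, a microtubule-shortening kinesin of centromeres, by -0.10 (-0.22 to 0.02). Both had every clone array below every population array.

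Of the 6 central spindle and cytokinesis genes, 3 fell and none rose. Kif23 and Racgap1 encode the motor and the GTPase-activating subunit of centralspindlin, the complex that bundles midzone microtubules and places the cleavage furrow. Kif23 had 8.38, 8.38 and 8.53 in the clone, against 8.88, 9.00 and 8.93 in the population. It fell by 0.51 on the log2 scale, or 1.42-fold (limma adjusted p = 0.00159). Racgap1 had 9.32, 9.36 and 9.39 in the clone, against 9.99, 9.90 and 9.97 in the population, and fell by 0.60, or 1.51-fold (limma adjusted p = 0.000286). Their ratio within an array differed by -0.09, with overlapping groups. Anln, which encodes the anillin scaffold of the contractile ring, had 9.37, 9.39 and 9.37 in the clone and 9.71, 9.75 and 9.78 in the population. It fell by 0.37 (limma adjusted p = 0.00172). These 3 calls held in each of 11 other fits, which include leaving out each array. Ect2, the exchange factor that centralspindlin recruits to activate RhoA, did not follow them. It had 9.85, 9.81 and 9.96 in the clone and 9.71, 9.88 and 9.90 in the population, a difference of 0.05 with an interval of -0.13 to 0.22. The ratio of Racgap1 to Ect2 was lower by 0.64 in the clone without overlap. Prc1, the bundler of midzone microtubules, had an interval of -0.16 to 0.16, and Kif20a, a motor that brings the passenger complex to the midzone, differed by -0.12 (-0.27 to 0.02).

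Of the genes that start anaphase, Espl1 and Cdc20 fell and Ube2c and Pttg1 did not pass the test. Espl1 encodes separase, the protease that cuts cohesin. It had 6.89, 7.06 and 7.08 in the clone, against 7.63, 7.62 and 7.74 in the population, and fell by 0.65, or 1.57-fold (limma adjusted p = 0.000798). Pttg1, which encodes securin, the inhibitor of separase, had 7.03, 7.06 and 6.95 in the clone and 6.91, 6.83 and 6.83 in the population. Its groups did not overlap, but the difference of 0.16 ± 0.05 missed the threshold (limma adjusted p = 0.0864). Cdc20, the activator of the anaphase-promoting complex, fell by 0.27 (limma adjusted p = 0.0454). This weakest of the calls was lost without any of clone arrays 1, 2 and 3 or population arrays 1 and 2 (adjusted p = 0.0549 to 0.138). Ube2c, its ubiquitin-conjugating enzyme, differed by 0.01 with an interval of -0.19 to 0.20.

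**Figure D2:**
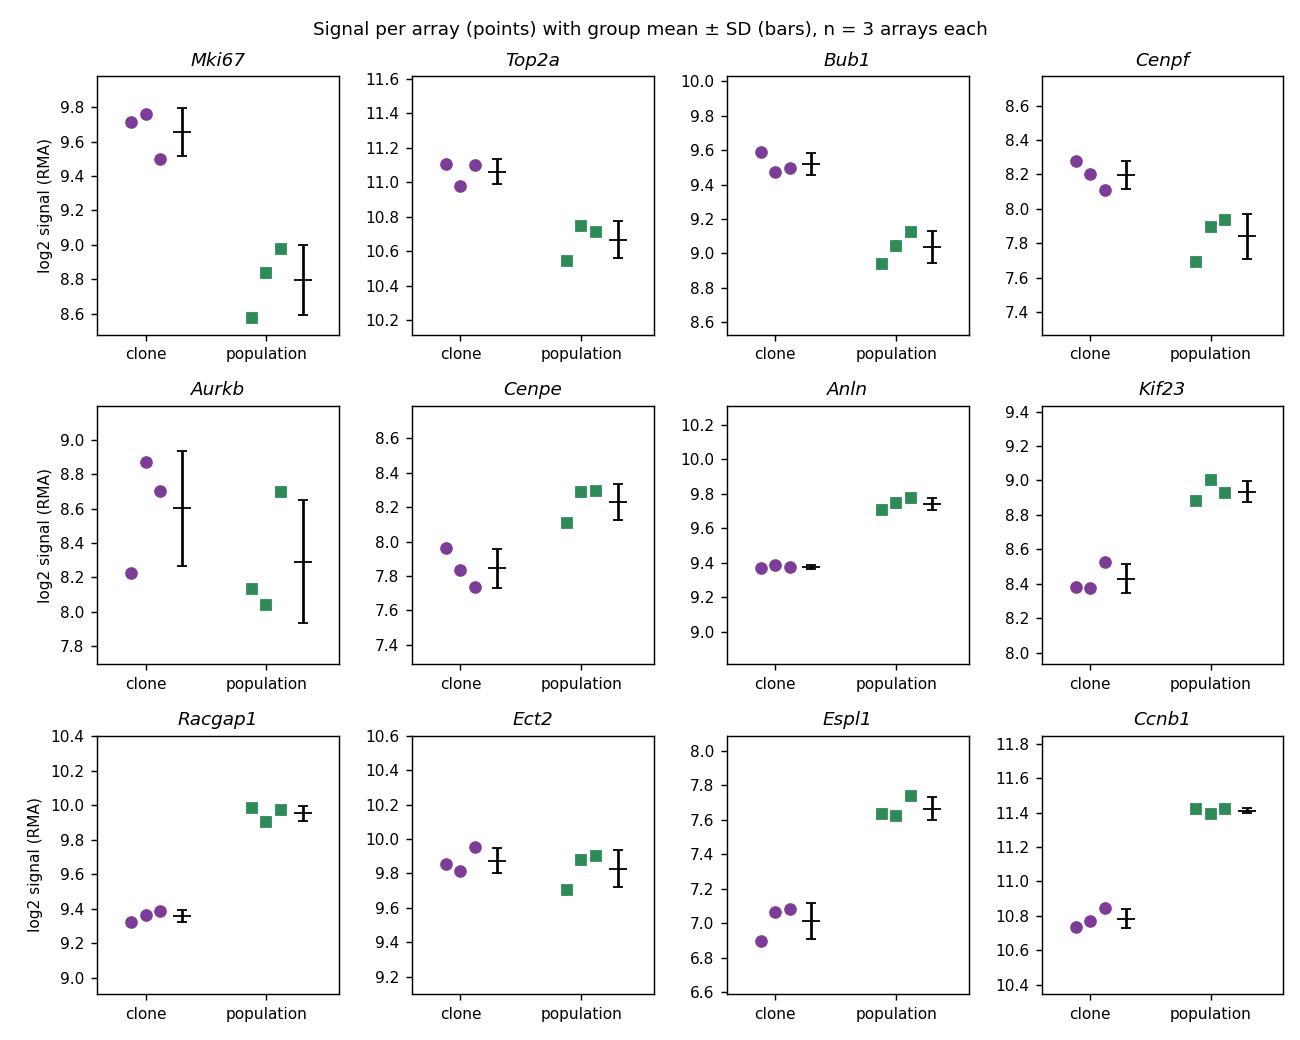
Log2 signal of 12 members on each array, clone left and population right, with the group mean ± SD beside the points (n = 3 arrays each); every panel spans the same range of 1.5 log2 units. The groups stand apart for Mki67, Top2a, Bub1, Cenpf, Cenpe, Anln, Kif23, Racgap1, Espl1 and Ccnb1, and overlap for Aurkb and Ect2.

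Within groups the members varied little. The median SD over the 36 genes was 0.06 in the clone and 0.08 in the population, against 0.07 in both groups for named genes at least as bright. Relative to the group mean of each gene, the median deviation of an array was between -0.03 and 0.04. In the population, array 3 was the highest of its group for 16 members and the lowest for 3, while array 2 was the lowest for 18. In all, 8 partner pairs were compared by their log2 ratio within an array, and the groups did not overlap for 5 of the 8. For Ccnb1 with Ccnb2 and Cenpe with Cenpf this follows from the single genes, whose groups stood apart in opposite directions. For single named genes as bright as the members 70.1% did not overlap, and the share over other gene pairs was not taken. With 3 arrays per group the exact two-sided permutation test cannot go below 0.1. Those 5 pairs reached that value (adjusted p = 0.16 over 8 pairs), so that no pair could pass.

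The members that fell most lay on chromosomes whose genes were lower in the clone as a whole. Chromosomes were taken by symbol, and the Ccnb1 row could share probes with copies of the gene elsewhere in the genome. Ccnb1 lies on chromosome 13, where 72.1% of the named genes above the median row were called lower. Racgap1 and Espl1 lie on chromosome 15, where 69.7% were. The median differences of those genes were -0.58 on chromosome 13 and -0.50 on chromosome 15. Relative to these medians, Ccnb1 stood at -0.05, Racgap1 at -0.10 and Espl1 at -0.15. Over all named genes, dim ones included, the medians were -0.13 on chromosome 13 and -0.15 on chromosome 15. Relative to those, Ccnb1 stood at -0.49, Racgap1 at -0.44 and Espl1 at -0.50. The values that follow use the genes above the median row unless named otherwise. On chromosome 3, where 61.3% were lower with a median of -0.42, Cenpe stood at 0.04 relative to it, so its direction turned. Relative to all named genes of that chromosome it stood at -0.29 and its direction did not turn. The other members there, Ect2, Ccna2 and Plk4, stood at 0.47, 0.47 and 0.62 above the median of their chromosome. Kif23 and Anln lie on chromosome 9, where 32.5% were lower with a median of -0.10, and they stood at -0.40 and -0.26 relative to it. Chromosomes 4 and 19 were also lower, with 42.3% and 44.4% of these genes called and medians of -0.20 on each. Cdc20 on chromosome 4 stood at -0.07 relative to its median and Incenp on chromosome 19 at -0.17, both nearer 0 than their own differences. Among the members that rose, Mki67 stood at 0.70, Bub1 at 0.36, Ccnb2 at 0.30 and Cenpf at 0.26 relative to their chromosomes. Top2a, on chromosome 11 with a median of 0.20, stood at 0.19, and Nek2, on chromosome 1 with a median of 0.10, at 0.18. Aurka stood at -0.37, farther from 0 than its own difference, since chromosome 2 had a median of 0.13. Of the 7 members on chromosomes 3, 13 and 15, 4 fell and none rose. Of the 29 on all other chromosomes, among them 4, 9 and 19, 5 fell and 6 rose. The part of the chromosomes in these differences was not tested.

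**Figure D3:**
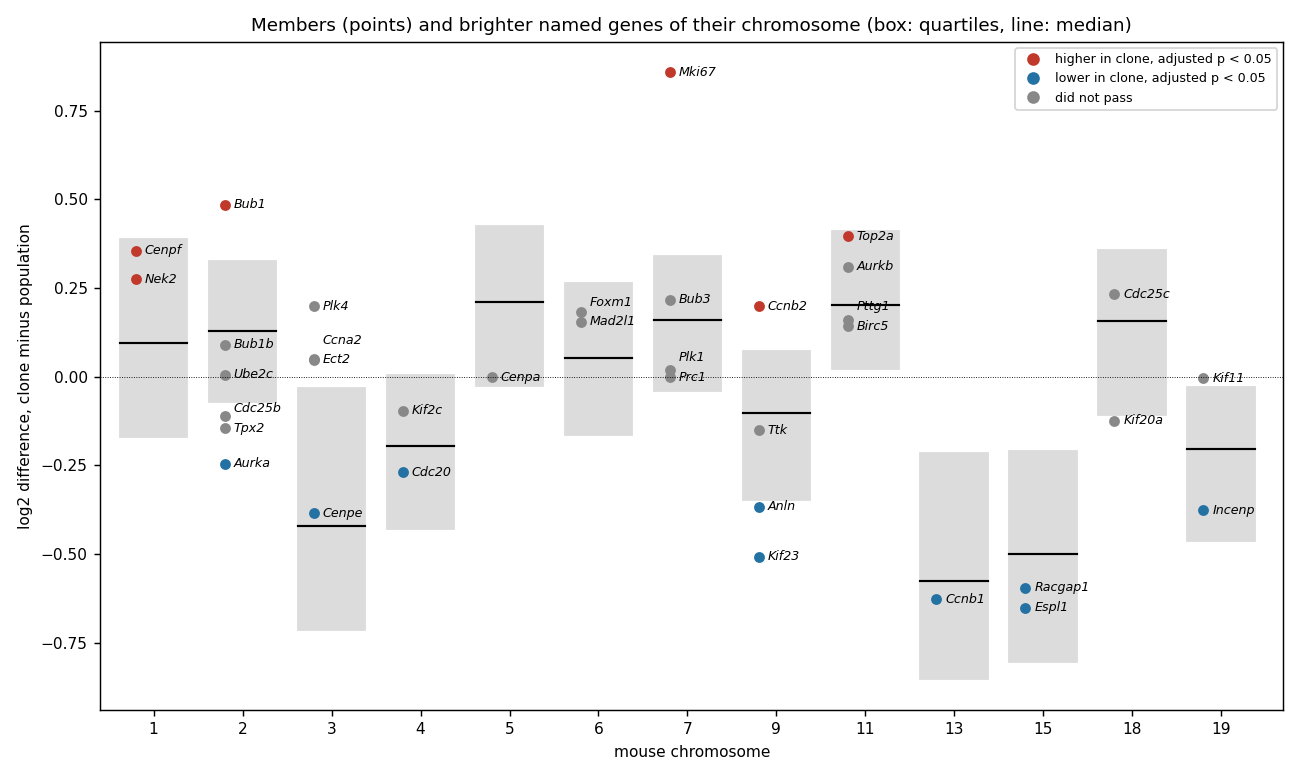
Log2 difference of clone minus population of each member (points) by chromosome, with the quartiles (grey box) and median (line) of the named genes of that chromosome above the median row. Ccnb1, Racgap1 and Espl1 lie near the medians of chromosomes 13 and 15, whereas Mki67, Bub1, Kif23 and Anln lie outside the boxes of theirs. Other members also lie outside, among them Aurka and Ccnb2, which passed the test. Ccna2, Ect2, Plk4, Tpx2, Cdc25b, Kif20a and Kif11 lie outside too and did not pass.

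For the rest of the mitotic machinery, counts by list are read beside the named genes as bright as the members. Of these genes 27.5% rose and 26.5% fell. The lists themselves were not cut at that brightness. They hold dimmer genes, among them Cdc14a at 6.12 in the clone and 5.37 in the population, so the sets are unlike. The share that rose was near that value for the kinetochore (30.0%), spindle motor (26.7%), anaphase-promoting complex (29.4%), late transcription (30.4%) and other proliferation (27.3%) lists, and no list was tested against it. Among 22 centrosome and centriole genes, 12 rose and 2 fell (median 0.34). Tubgcp5, a subunit of the microtubule-nucleating gamma-tubulin ring, rose by 0.97 and Aspm, a spindle pole protein, by 0.80. Tubgcp6 (-0.47) lost its fall without clone arrays 1 or 3 or population arrays 1 or 3 (adjusted p = 0.0635 to 0.067), and Tubg1 (-0.25) without clone arrays 1 or 3 or population arrays 1 or 2 (0.107 to 0.126). The list therefore held 0 falls without clone array 1, clone array 3 or population array 1, and 1 without population array 2 or 3. Of 40 further kinetochore and centromere genes, 12 rose and 6 fell (median 0.12). Knl1, listed as Casc5, the platform to which Bub1 and Bub3 bind, rose by 0.82 and Cenpn by 0.70. Trip13, an ATPase that takes Mad2 out of its active form, fell by 0.74 and Cenpk also fell (-0.65), both on chromosome 13. Of 30 further spindle motors and microtubule factors, 8 rose (5 without clone array 1, 2 or 3) and 3 fell (median 0.13). Kif14, a motor of the midbody, rose by 0.94, or by 0.47 with its rows averaged, and Kif2a, a microtubule-shortening kinesin on chromosome 13, fell by 1.01. Ckap2l (0.67) lost its call without any of the clone arrays or population arrays 1 and 2 (adjusted p = 0.0617 to 0.0801), and Clasp2 (-0.41) without clone arrays 2 or 3 or population arrays 2 or 3 (0.123 to 0.139).

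Of 21 genes around the control of Cdk1, 7 rose and 5 fell (median 0.15). Cdc14a, a phosphatase, rose by 0.74 and Cdk2 by 0.69, while the Cdk-binding gene Cks1b fell by 0.95 and Cdc14b also fell (-0.88). Cdk1 itself had 9.34, 9.46 and 9.33 in the clone and 9.28, 9.98 and 9.84 in the population, where array 1 stood below the others. Its difference of -0.32 (limma adjusted p = 0.272) became -0.53 without that array (0.00621). Of 21 condensin and cohesin genes, 8 rose and 2 fell (median 0.13). The rises were 4 without clone array 1 or population array 2, and 5 without clone array 2 or population array 1. They were 6 without clone array 3 or population array 3. Pds5b, a cohesin regulator, rose by 0.81 and Esco2, which acetylates cohesin, by 0.61, while Ncaph2 of condensin II (-0.83) and the cohesin subunit gene Rad21 (-0.43) fell, both on chromosome 15. Of 17 subunits and partners of the anaphase-promoting complex, 5 rose (3 without clone array 1) and 2 fell (median 0.15). Anapc15 rose by 0.42 and Anapc7 by 0.40, and Anapc16 (-0.44) and the elongating enzyme gene Ube2s (-0.40) fell.

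Further genes of cytokinesis gave 4 rises and 5 falls of 21 (median 0.10), the falls being 2 without clone array 1 or population array 3 and 3 without population array 1. Cntrl, a centriole protein that takes part in abscission, rose by 0.70 and Sept2 by 0.36. Iqgap3 (-0.91) on chromosome 3 and Myh9 (-0.89) on chromosome 15, which encodes a non-muscle myosin heavy chain, fell. Regulators of late cell cycle transcription gave 7 rises and 5 falls of 23 (median 0.01). Rbl1, which encodes the pocket protein related to Rb1, rose by 0.70, or by 0.40 with its rows averaged, and E2f8, a repressing E2F factor, by 0.59, while Rb1 fell by 0.89. E2f3 fell by 0.48, a call lost without clone array 2 (0.0507). The falls of this list numbered 2 or 3 when any 1 of the 6 arrays was left out. Other genes tied to proliferation gave 6 rises and 7 falls of 22 (median 0.13). The rises numbered 3 without clone array 1 and 4 without any other array. Neil3, a DNA glycosylase, rose by 0.75 and Depdc1a (-0.85) and Troap (-0.79) fell. Lmnb1 (0.66), which encodes lamin B1, lost its call without clone arrays 1 or 3 or population arrays 2 or 3 (adjusted p = 0.0716 to 0.0745).

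Of 40 DNA replication genes, which are expressed earlier in the cell cycle, 19 rose and 3 fell (median 0.27). The rises numbered 13 to 16 when any single array was left out, 13 with a replicate block and 14 with centred arrays. They numbered 18 with robust moderation and a variance trend, and 20 with dim rows left out. The falls numbered 1 without population array 1 or 2. Cdc7, the kinase that fires replication origins, rose by 1.03 and Gins1 of the replicative helicase by 0.80. Gmnn, which encodes the licensing inhibitor geminin, fell by 0.40, and Rpa2 (-0.47) fell with a call lost without clone arrays 1 or 3 or population arrays 1 or 2 (adjusted p = 0.0658 to 0.0781). With all arrays in the fit, the share that rose was 47.5% in this list and 16.7% among the mitosis and spindle genes. It was 27.5% of all named genes as bright as the members. The replication list was not cut at that brightness either. The difference between the lists was not tested. Several of the named falls in these lists lay on chromosomes 3, 13 and 15. Relative to the median of the brighter genes of their chromosome, 4 of them turned sign, with Gmnn at 0.18 and E2f3 at 0.10 on chromosome 13, and Rad21 at 0.07 and Tubgcp6 at 0.03 on chromosome 15. Cenpk (-0.08) and Trip13 (-0.16) on chromosome 13 stood much nearer 0 than their own differences. The other named falls on these 3 chromosomes stood between -0.53 (Cks1b) and -0.29 (Troap), each also nearer 0. Over all named genes, dim ones included, the medians of chromosomes 13 and 15 were -0.13 and -0.15. Gmnn, E2f3, Rad21 and Tubgcp6 each lay farther below 0 than those medians, so none of these 4 turned sign relative to them.

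**Figure D4:**
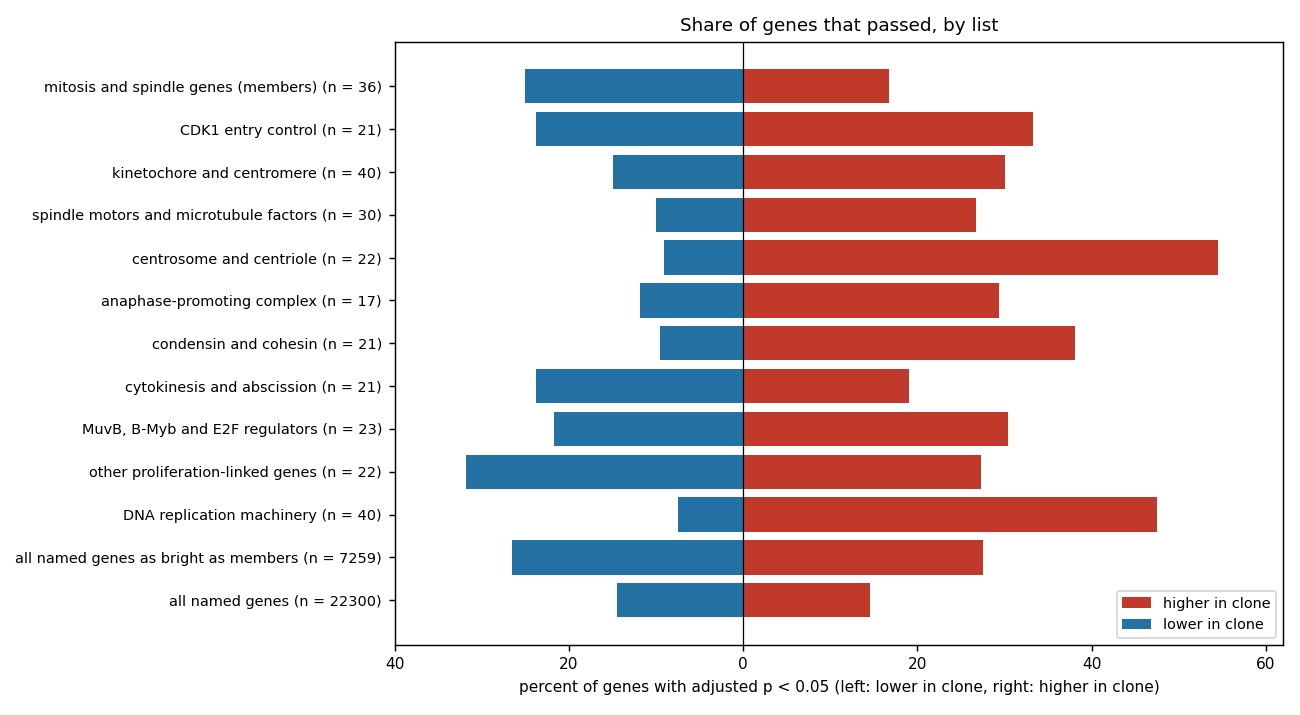
Percent of the genes of each list that passed limma's test at an adjusted p under 0.05, lower in the clone to the left and higher to the right, with the number of genes measured. The mitosis and spindle genes had 25% lower and 16.7% higher, while the DNA replication and centrosome lists lie mostly to the right.

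The arrays carried stromal signal and little signal of blood or endothelial markers, the only other cell types looked at. Of 16 stromal markers, 15 lay above the array medians by their mean over the 6 arrays, and 5 rose and 8 fell. Prrx1 averaged 11.72 ± 0.03 in the clone and 11.22 ± 0.04 in the population (SD, n = 3 each). Surface markers of such cells ranged widely. Pdgfra averaged 11.41 in the clone and 9.98 in the population, Ly6a 9.72 in the clone and 10.70 in the population, and Vcam1 8.88 in the clone and 8.92 in the population. Dimmer ones were Eng at 4.88 in the clone and 4.89 in the population, Thy1 at 4.61 in the clone and 6.43 in the population, and Nt5e at 4.55 in the clone and 6.35 in the population. The summed linear signal of all 16 stromal markers was 29424 to 30669 in the clone and 27194 to 27910 in the population. Of 15 blood cell markers 14 lay below the array medians, with Ptprc, the pan-leukocyte gene, at 4.39 in the clone and 4.37 in the population. The blood list gave 1 rise and 2 falls, Cd53 (-0.87) and Cd14 (-0.60), and its summed linear signal was 385 to 402 in the clone and 421 to 426 in the population. The rise, Lyz2 (0.35), was lost without clone array 3 (0.054). Of 10 endothelial markers 9 lay below the array medians and the summed signal was 242 to 254 in the clone and 241 to 248 in the population. Their 1 rise, Egfl7 (0.42), was lost without any array but clone array 1 (adjusted p = 0.0506 to 0.108). Their 1 fall, Plvap (-0.25), was lost without any array but clone array 3 (0.0803 to 0.108). The part of other cells in the differences above was not tested.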

How the data were processed

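Biotin-labelled cRNA was measured on Affymetrix arrays. Per the submitters' processing notes, Partek and RMA were used, and the authors' deposited values are on a log2 scale. RMA corrects background, quantile-normalizes arrays and summarises probes, so a global change in RNA per cell is not visible. No array type, annotation or build is named in the sources used here. The authors' deposited table pairs rows with symbols and gives unadjusted p-values and, as a score, a signed linear fold whose log2 matched the differences of group means to within 7.81e-05. A further 6 columns of that table match no label and were not used.

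Groups came from the labels. limma 3.58.1 (lmFit and eBayes, R 4.3.3, 4 residual and 2.72 prior degrees of freedom) was fitted on all 35556 rows without a filter, two-sided, with p-values adjusted by Benjamini-Hochberg and called under 0.05. Adjusted p-values come from this test unless named otherwise. Differences are clone minus population. The number of arrays limits the precision.

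Of 25123 rows with a symbol, 18923 were current and 3890 an older name of 1 gene in a RefSeq table of GRCm38.p6, used for names, chromosomes and promoters. The older name Aim1, which Aurkb shares with other genes, was not used. The row with the highest mean stands for a gene. Named genes are all members, Cdk1 and up to 4 passing genes per related list, 2 in each direction where both occur. Further marker genes are named as checks of the cell type. The members and lists were chosen with earlier results of these data known. Alternatives were a replicate block, centring, leaving out dim rows, robust moderation with a variance trend, averaged rows, a threshold of 0.01, the authors' deposited p-values, chromosome medians and leaving out each array.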

Additional observations from a re-analysis of the deposited data

How the results depend on the processing

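Of the 15 members that passed, 8 passed in all 11 other fits (Ccnb1, Bub1, Kif23, Racgap1, Anln, Espl1, Mki67, Top2a) and 7 were lost in at least 1; 20 members passed in none. With a replicate block 3 members rose and 6 fell, though same-numbered arrays did not deviate together (r = -0.184, -0.139 and -0.0353), so the numbers do not pair them. At an adjusted p under 0.01, 3 rose and 5 fell; with the p-values of the authors' deposited table, adjusted, 5 rose and 5 fell. Without single arrays 3 to 7 members rose and 6 to 8 fell, with medians of 0.00 to 0.07. Members near 0 changed sign: Plk1 (-0.019) and Ube2c (-0.032) with centred arrays, and without single arrays Plk1 (-0.013 to 0.066), Ube2c (-0.034 to 0.073), Cenpa (-0.035 to 0.024), Kif11 (-0.133 to 0.088), Prc1 (-0.065 to 0.048) and Ect2 (-0.014 to 0.084). Relative to the brighter genes of its chromosome, an alternative added after seeing the data, Cenpe stood at 0.037 and the median of all members at -0.04; it was 0.03 relative to all named genes of a chromosome. The number of arrays limits what can be called, and the scale is relative, so a change shared by all genes would not show.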
